A study of Mus musculus with 24 samples.

Results

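The Hox genes encode homeodomain transcription factors that lie in 4 clusters in the mouse genome, and 38 of the 39 protein-coding members (Hoxa, Hoxb, Hoxc or Hoxd followed by a number, with no antisense genes) were found by symbol among the 37315 rows of the allelic count tables, while Hoxd4 was not analysed here. The members were measured in kidney and in 2 clonal B cell lines of the same cross. Kidney libraries were made from 1 preparation of total RNA from the left kidney of 1 adult female mouse of strain 129S1/SvImJ x CAST/EiJ F1, labelled control, in 3 experiments of 6 libraries each: NEBNext from 100 ng, SMARTseq from 10 ng and SMARTseq from 100 pg. Abl.1 and Abl.2 are Abelson lymphoblastoid lines, that is, B-lineage cells immortalised by the Abelson virus, female, of the same F1 background, kept in growth medium and labelled control. Each is 1 clone with 2 SMARTseq libraries from 10 ng, and both Abl.2 libraries were sequenced a second time on another day. Libraries of a group are repeated preparations of 1 RNA or 1 culture as far as the labels say, so p-values measure the spread between library preparations and not between animals.

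Hox genes of the same number in different clusters are paralogs, copies that arose when the whole cluster was duplicated. Genes at the 3′ end of a cluster (low numbers) are switched on early and far anterior in the embryo, genes at the 5′ end (high numbers) later and more posterior, and adult tissues keep much of the Hox pattern of the level at which they formed. In the kidney, the paralogs of group 11 are needed for formation of the organ, and Hoxb7 is known as a gene of the ureteric bud, which gives rise to the collecting ducts. In blood, Hoxa9 and other members are active in stem and progenitor cells and are shut off during differentiation. Hox proteins bind DNA together with the TALE homeodomain cofactors Pbx and Meis.

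Most Hox counts in these libraries came from paralog groups 7 and 9. The homeoboxes of their Hoxb members are shown, the stretch of the last exon that encodes the DNA-binding homeodomain. They let a reader see how unlike this pair of one cluster is at the level of a read, since reads were assigned by alignment. Paralogs of the same number in other clusters were not compared. Each sequence is 180 bases of GRCm38, 5′ to 3′ on the plus strand, at chr11:96289385-96289564 for Hoxb7 and chr11:96274659-96274838 for Hoxb9, and capitals mark the bases at which the pair differ.
Hoxb7: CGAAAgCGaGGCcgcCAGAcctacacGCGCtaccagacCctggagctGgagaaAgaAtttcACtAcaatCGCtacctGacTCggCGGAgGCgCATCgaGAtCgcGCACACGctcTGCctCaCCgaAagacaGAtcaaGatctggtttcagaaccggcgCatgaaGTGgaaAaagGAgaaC
Hoxb9: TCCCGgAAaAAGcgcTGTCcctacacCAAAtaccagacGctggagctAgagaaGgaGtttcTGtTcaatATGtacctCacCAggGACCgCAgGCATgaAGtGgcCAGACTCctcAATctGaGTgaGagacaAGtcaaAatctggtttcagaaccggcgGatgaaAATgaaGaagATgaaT
Hoxb7 and Hoxb9 shared 111 of 180 bases (61.7%), with a longest identical run of 20 bases.

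The measurements are whole-number counts of reads over SNPs that differ between the parental genomes, given for a maternal and a paternal column. Their sum over both columns is called the allelic count here, and CPM is that count per 1000000 allelic counts of the library. A gene's allelic count depends on how many SNPs its exons hold, and a gene at 0 may simply have no countable SNP. Levels were therefore tested only between libraries of the same gene. Shares of Hox counts by gene, paralog group or cluster describe counts and rest on SNP content too. Total allelic counts lay between 6138693 and 6702351 in kidney libraries, between 19213150 and 22241719 in the clones and between 22222263 and 22410835 in the second run of Abl.2. Tissue labels were checked with marker lists. All 11 B-lineage markers reached 30 counts in each clone, with a summed level of 10158.6 to 11348.3 CPM against 40.2 to 62.1 CPM in kidney, while the summed proximal tubule markers lay at 15641.0 to 23031.7 CPM in kidney and at 0.104 to 5.81 CPM in the clones. In bulk kidney, fewer cells of a type and less RNA per cell cannot be told apart.

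Of the 38 members, 29 had at least 1 count in kidney, 24 reached 30 pooled counts in at least 1 kidney experiment and 17 did so in all 3. Another 9 were at 0 in all 24 samples, among them Hoxb8, Hoxc11 and all 4 group 13 members, the most 5′ genes of the clusters. The remaining 5 had few counts over the 18 kidney libraries, namely Hoxa2 (12 counts), Hoxb1 (7), Hoxc5 (4), Hoxd12 (1) and Hoxd1 (44). Hoxd1 counts came from 7 of 18 libraries and none was in the maternal column. In the clones the picture was narrower: 7 members, all of the Hoxb cluster, had any count, and the Hoxa, Hoxc and Hoxd clusters were at 0 in all 4 clone libraries and in the second run.

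**Figure D1:**
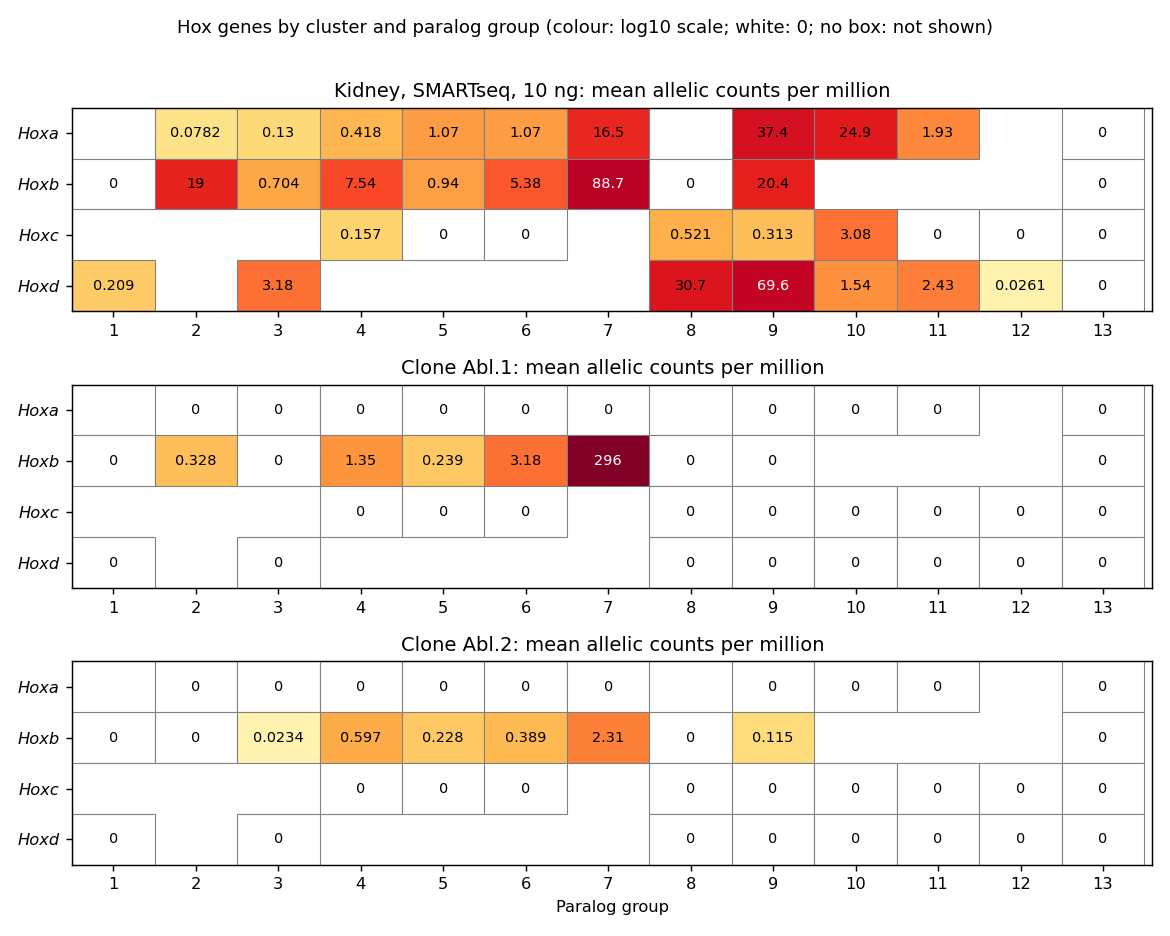
Mean level (CPM, colour scale) of Hox genes in kidney SMARTseq 10 ng libraries, Abl.1 and Abl.2, laid out by cluster (rows) and paralog number (columns). Kidney shows signal in all 4 clusters, Abl.1 mainly in Hoxb7 (295.5 CPM) and Abl.2 only low values within the Hoxb cluster.

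The 4 clusters together gave 330.7 CPM ± 12.8 (SD, n = 6) with NEBNext, 338.0 ± 8.19 with SMARTseq at 10 ng and 299.8 ± 12.9 at 100 pg. Hoxb and Hoxd genes gave most of these counts. Hoxb made up 31.6%, 42.2% and 44.7% of Hox counts in the 3 experiments in that order, Hoxd 41.3%, 31.9% and 27.7%, and Hoxa 24.6%, 24.7% and 26.3%. Hoxc gave 2.48%, 1.2% and 1.35%. By paralog number, group 9 gave 45.6%, 37.8% and 30.6% and group 7 17.3%, 31.1% and 35.2%, so that the order of these 2 groups differed between the NEBNext and the 100 pg libraries. These shares rest on SNP content as well as on expression.

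All posterior members of groups 9 to 11 but Hoxc11 had counts. For Hoxd9, lowest, median and highest values were 82.7, 88.5 and 101.4 CPM with NEBNext, 66.7, 69.5 and 72.6 CPM at 10 ng and 39, 45.9 and 55.5 CPM at 100 pg, and the 3 experiments did not overlap in CPM. In the kit test below, which scales libraries further, Hoxd9 differed by -0.04 on the log2 scale (adjusted p = 0.604 by edgeR) and was not called. Hoxa9, a regulator of blood progenitors that is also active in posterior trunk tissues, lay at 29.0, 33.4 and 41.0 CPM with NEBNext, at 35.2, 35.9 and 41.9 CPM at 10 ng and at 26.8, 34.3 and 37.2 CPM at 100 pg. For Hoxb9 the values were 21.7, 25.4 and 27.2 CPM, 18.0, 20 and 23.0 CPM, and 9.53, 11.1 and 16.8 CPM in the same order. All 100 pg libraries were thus below all 10 ng libraries for Hoxb9, while the Hoxa9 libraries overlapped.
Hoxa10 ranged from 16.8 to 26.3 CPM with NEBNext (median 21.3), from 21.1 to 27.7 CPM at 10 ng (median 25.4) and from 17.5 to 28.0 CPM at 100 pg (median 20.7). Hoxc10 had medians of 4.64, 2.9 and 2.04 CPM in the same order, and ranges of 2.93 to 6.27, 2.5 to 3.91 and 1.66 to 3.78 CPM. Hoxa11 and Hoxd11, the group 11 genes that act together in nephron formation, had medians of 3.29, 1.88 and 2.27 CPM and of 1.41, 2.11 and 1.97 CPM. Hoxa11 spanned 2.77 to 3.62, 1.41 to 2.5 and 0.151 to 5.29 CPM, and Hoxd11 spanned 0.633 to 2.73, 1.41 to 4.7 and 1.06 to 4.39 CPM. Hoxd10 was counted at 0.157 to 1.26 CPM (median 0.727), 1.1 to 2.03 CPM (median 1.56) and 0.151 to 2.13 CPM (median 1.06), and Hoxc9 at medians of 1.2, 0.313 and 0.454 CPM with a range over all libraries of 0.0 to 2.12 CPM. The low members were counted in most libraries but spread widely at 100 pg.

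Among the central groups 5 to 8, Hoxb7 stood out by its difference between kits. Its levels were 34.7, 42.5 and 49.7 CPM (lowest, median, highest) with NEBNext, 83.5, 87.9 and 93.6 CPM with SMARTseq at 10 ng and 67.0, 91.9 and 97.8 CPM at 100 pg. Every SMARTseq library was above every NEBNext library. Its paralog Hoxa7 lay at 9.76, 13.5 and 21.6 CPM, at 14.5, 15.7 and 19.9 CPM and at 15, 17.8 and 21.3 CPM, with overlapping groups. Hoxd8 lay at 29.5, 34.6 and 39.6 CPM, at 29.4, 30.7 and 31.9 CPM and at 25.6, 29.9 and 31.1 CPM. Hoxc8 was near the limit of counting, with medians of 0.957, 0.391 and 0.606 CPM and a range of 0.0 to 3.15 CPM. Hoxb6 had medians of 5.96, 5.32 and 6.2 CPM with ranges of 4.11 to 8.63, 3.44 to 7.35 and 4.23 to 13.2 CPM. For Hoxa6 the medians were 4.15, 0.863 and 1.13 CPM, with ranges of 2.98 to 7.56, 0.782 to 1.88 and 0.454 to 6.53 CPM. Hoxb5 had medians of 2.71, 0.938 and 1.36 CPM, and Hoxa5 medians of 1.1 and 0.907 CPM with SMARTseq and 34 counts in all with NEBNext. Their ranges were 0.0 to 1.57, 0.313 to 1.72 and 0.454 to 2.27 CPM for Hoxa5, and 1.63 to 4.33, 0.47 to 1.73 and 0.454 to 2.27 CPM for Hoxb5.

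The anterior groups 2 to 4 were counted mainly from Hoxb2, Hoxb4 and Hoxd3. Hoxb2 lay at 9.65, 13.9 and 16.3 CPM with NEBNext, 15.5, 19.9 and 21.6 CPM at 10 ng and 15.3, 21.5 and 24.3 CPM at 100 pg. Hoxb4, which is studied for its effect on blood stem cells, lay at 11, 12.8 and 16.1 CPM, 5.95, 7.43 and 8.76 CPM, and 2.87, 4.31 and 5.44 CPM, with no overlap between the 3 experiments. Hoxd3 ran from 5.37 to 10.3 CPM with NEBNext (median 7.22), above all 10 ng libraries, which ran from 1.25 to 4.38 CPM (median 3.68). At 100 pg it ran from 1.66 to 6.07 CPM (median 3.48). Hoxa3, Hoxa4 and Hoxc4 reached 30 counts only with NEBNext, at medians of 0.947, 1.83 and 1.1 CPM and ranges of 0.149 to 1.63, 1.04 to 3.48 and 0.0 to 2.41 CPM. Hoxb3 reached 30 counts with NEBNext (median 1.67 CPM, range 0.784 to 2.37) and at 100 pg (median 0.832 CPM, 44 counts).

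**Figure D2:**
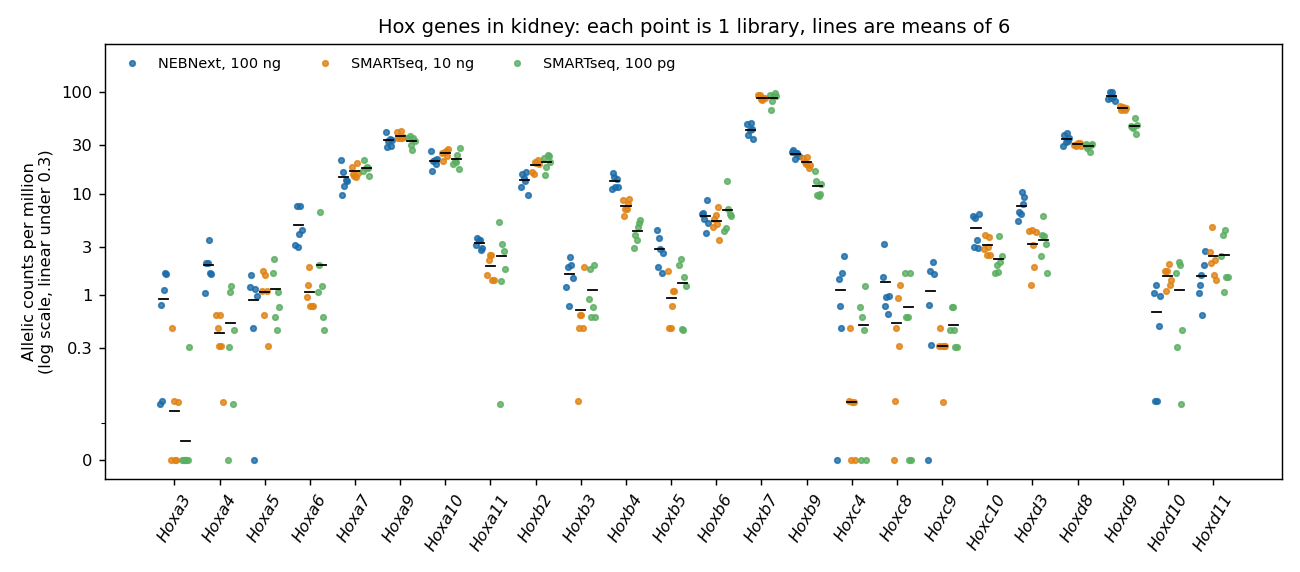
Level (CPM, log axis) of the 24 Hox genes that reached 30 pooled counts in a kidney experiment, each point 1 library, coloured by experiment (6 libraries each). Hoxb7 is higher in both SMARTseq experiments than with NEBNext, and Hoxb4, Hoxb9 and Hoxd9 are lowest at 100 pg.

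The kit comparison asked how much Hox levels depend on library preparation when the RNA is the same. SMARTseq at 10 ng was compared with NEBNext at 100 ng, so kit and input change together. In edgeR's quasi-likelihood test with Benjamini-Hochberg adjustment over 11923 genes, 77.9% of all genes were called at an adjusted p under 0.05, and 10 of the 16 members tested were called, 6 higher with SMARTseq and 4 lower, where 38.3% of all genes were higher and 39.6% lower. Hoxb7 rose by 1.41 on the log2 scale (SE 0.08, adjusted p = 1.39e-15), a 2.67-fold difference. Hoxd11 (log2 1.02), Hoxb2 (0.85), Hoxa10 (0.59), Hoxa7 (0.54) and Hoxa9 (0.52) also rose, while Hoxa6 fell by 1.82 on the log2 scale, Hoxb5 by 1.22, Hoxd3 by 0.89 and Hoxb4 by 0.45. The largest of these adjusted p-values was 0.0165, for Hoxd11. Hoxa11 (log2 -0.38), Hoxb6 (0.19), Hoxb9 (0.08), Hoxc10 (-0.22), Hoxd8 (0.17) and Hoxd9 (-0.04) did not pass. The median log2 difference was 0.13 over the members tested and -0.03 over all genes. The test scales libraries by TMM. With library totals only the median of all genes moved to -0.39, Hoxa7, Hoxa9, Hoxa10 and Hoxd11 no longer passed, and Hoxa11 (-0.74), Hoxd9 (-0.39) and Hoxb9 (-0.28, with a change of sign) were called lower. The 9 members called were then 2 higher (Hoxb7 and Hoxb2) and 7 lower, where 35.1% of all calls were higher against 49.2% with TMM.

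The input comparison of 100 pg with 10 ng kept the kit and changed the amount of RNA. It shares the 10 ng libraries with the kit comparison. Here 15.8% of 11690 genes were called, 8.84% higher and 6.93% lower, and 3 of 15 members passed, all lower at 100 pg. Hoxd9 fell by 0.59 on the log2 scale (SE 0.08, adjusted p = 2.16e-05 by edgeR), Hoxb9 by 0.78 (SE 0.15, adjusted p = 0.00119) and Hoxb4 by 0.82 (SE 0.2, adjusted p = 0.00914). Hoxb7 differed by -0.02 on the log2 scale (SE 0.08) and Hoxa9 by -0.18 (SE 0.09, adjusted p = 0.226). The other 10 members lay between -0.47 (Hoxd10) and 0.35 (Hoxb6) and did not pass. The median of the members tested was -0.07.

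In Abl.1 nearly all Hox counts came from 1 gene, and in Abl.2 few Hox counts were left. Hoxb7 was counted 6163 and 6009 times in the Abl.1 libraries (320.8 and 270.2 CPM) and 35 and 66 times in those of Abl.2 (1.64 and 2.98 CPM). The second run of the Abl.2 libraries gave 57 and 90 counts (2.54 and 4.05 CPM). Hoxb7 thus made up 98.3% of all Hox counts in Abl.1 and 63.1% in Abl.2, where Hoxb4 gave 16.2% and Hoxb6 10.6%, and the mean CPM of Abl.1 was 128.0 times that of Abl.2. Hoxb6, its neighbour toward the 3′ end, had 40 and 95 counts in Abl.1 and 7 and 10 in Abl.2. For Hoxb4 there were 37 and 17 counts in Abl.1, 12 and 14 in Abl.2, and 36 and 28 in the second run of Abl.2. The other Hoxb members had at most 10 counts in a library: Hoxb5 with 4 and 6 in Abl.1 and 3 and 7 in Abl.2, Hoxb2 with 10 and 3 in Abl.1 and none in Abl.2, Hoxb9 with none in Abl.1 and 3 and 2 in Abl.2, and Hoxb3 with 1 count in 1 Abl.2 library. Signal was thus limited to the stretch from Hoxb2 to Hoxb9 at the depth of these libraries.

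**Figure D3:**
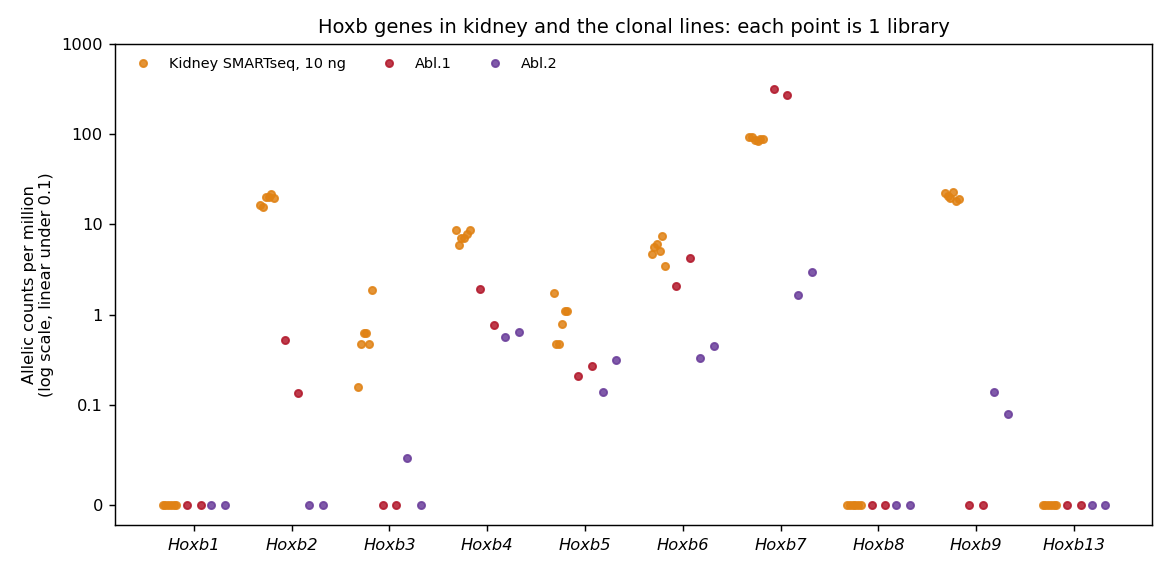
Level (CPM, log axis) of the Hoxb genes per library in kidney SMARTseq 10 ng (6 libraries), Abl.1 (2) and Abl.2 (2), ordered along the cluster. Hoxb7 in Abl.1 (270.2 and 320.8 CPM) lies above all kidney libraries (83.5 to 93.6 CPM), and in Abl.2 below them (1.64 and 2.98 CPM).

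Between the clones, 45.5% of 12492 genes were called and 24.1% were lower in Abl.2. Of the 3 members with enough counts to be tested, Hoxb7 was lower in Abl.2 by a log2 difference of -7.35 (SE 0.39, adjusted p = 0.000196 by edgeR) and Hoxb6 by -3.33 (SE 0.64, adjusted p = 0.00924). Hoxb6, low in Abl.2, passed the filter on low counts only through Abl.1, which favours that direction. Hoxb4 differed by -1.54 (SE 0.75, adjusted p = 0.145), and without the second Abl.1 library it passed. With the second run in place of the first, or another scaling or library left out, the Hoxb7 difference lay between -7.84 and -6.83. Each line is 1 clone, so a difference between clones cannot be told apart from a difference between the cultures.

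Against kidney, both clones lacked most of the members. The comparison used SMARTseq at 10 ng in both, but RNA extraction, sequencer and read layout differed as well as the cells, and these cannot be told apart. In the mean of both clones 16 of 16 members tested were called lower, against 86.8% of all 13991 genes called and 49.4% called lower. Of the 16, 11 were at 0 in all 4 clone libraries and so passed the filter on low counts only through kidney, which fixes their direction. Hoxb2, Hoxb4 and Hoxb9, low in the clones, also passed it only through kidney, which favours a lower level in the clones. Hoxb6 and Hoxb7 were the members that passed it through a clone as well. For the 11 members at 0, the kidney level divided by the level of 3 counts over the 4 clone libraries bounds the difference. Hoxd9 was at least 1971.5-fold lower, Hoxa9 at least 1060.1-fold, Hoxd8 at least 868.6-fold, Hoxa10 at least 705.9-fold and Hoxa7 at least 468.7-fold. The lowest bound among them was 30.3-fold, for Hoxa5. Each clone was also set against kidney alone, a contrast added after seeing the data. In Abl.1, 84.8% of genes were called (37.9% higher, 46.9% lower) and Hoxb7 was higher than in kidney by 1.24 on the log2 scale (SE 0.13, adjusted p = 1.16e-06), the 1 member higher in a clone, with a ratio of mean CPM of 3.33. Hoxb6 was lower in Abl.1 by a log2 difference of -1.28 (SE 0.33, adjusted p = 0.00283), which did not pass with library totals only (-0.75). In Abl.2, 86.1% of genes were called (37.8% higher, 48.3% lower) and Hoxb7 was lower by a log2 difference of -6.11 (SE 0.22, adjusted p = 1.86e-11). Ratios of mean CPM, kidney over clone, were 5.61 for Hoxb4 and 57.9 for Hoxb2 in Abl.1, and 12.6 for Hoxb4, 13.8 for Hoxb6 and 176.9 for Hoxb9 in Abl.2.

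Allelic imbalance (AI) is the share of a gene's allelic counts in the maternal column, with 0.5 for equal expression. Column names were kept as deposited. In kidney, 8 of 9 imprinted genes with enough counts had an AI of at most 0.14 or at least 0.966, on the side opposite to the one their imprint would give by these names, and the other, Phlda2, was near even at 0.46, so which parental strain each column stands for is uncertain here. For all members with 30 pooled counts, AI was tested against 0.5 over libraries with edgeR. With NEBNext 31.1% of all genes were called and 4 of 23 members, with SMARTseq at 10 ng 40% and 3 of 18, and at 100 pg 21.2% and 0 of 20, of which 3 had an unadjusted p under 0.05. The members' share was below that of all genes in each of the 3. Many members had few counts, which limits this test, and the share among genes of like depth was not tested.

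Hoxb9 had an AI above 0.5 in all 3 experiments. Pooled AI was 0.637 with NEBNext, with libraries from 0.614 to 0.659, and 0.587 at 10 ng, with libraries from 0.557 to 0.619, so all 12 libraries lay above 0.5. The log2 odds were 0.81 (SE 0.15, adjusted p = 0.000118) and 0.5 (SE 0.13, adjusted p = 0.00349). At 100 pg pooled AI was 0.691 and 5 of 6 libraries lay above 0.5, with a range of 0.46 to 0.838 (adjusted p = 0.0534). Hoxd9 lay on the other side, at 0.417 at 10 ng with all 6 libraries between 0.391 and 0.46 (log2 odds -0.49, SE 0.08, adjusted p = 1.12e-05). With NEBNext it was 0.459 and at 100 pg 0.456, each with 5 of 6 libraries below 0.5 and neither called. Hoxb2 had an AI of 0.382 with NEBNext (adjusted p = 0.0285) and 0.42 at 10 ng (adjusted p = 0.0179), with 5 of 6 libraries below 0.5 in both, and 0.48 at 100 pg. Hoxb6 was called with NEBNext alone, at 0.683 with libraries from 0.61 to 0.762 (adjusted p = 0.0126), against 0.505 and 0.557 in the SMARTseq experiments. Hoxa9 was at 0.573 with NEBNext (adjusted p = 0.0328), 0.509 at 10 ng and 0.58 at 100 pg.

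These AI calls differ in how far they hold. The study's own method corrects for overdispersion with QCC, the factor by which AI varies between replicates beyond binomial sampling. The factor as a mean over 15 pairs of libraries was 1.87 for NEBNext, 1.47 for 10 ng and 2.59 for 100 pg. This test used Bonferroni adjustment, stricter than the Benjamini-Hochberg adjustment of the edgeR calls. By it, of these calls that of Hoxd9 at 10 ng alone was kept. The parts of factor and adjustment in the losses were not tested. Pairs with NEBNext replicate 1 had factors of 2.07 to 2.2 and the other 10 pairs 1.68 to 1.82 (mean 1.74), and without that library the corrected test again called 0 members with NEBNext, a check added after seeing the data. Hoxa9 was lost without NEBNext replicate 1, 2, 4 or 5, and Hoxb2 without NEBNext replicate 1 or 5 and without 10 ng replicate 4 or 6. Leaving out 1 library never ended the calls of Hoxb9 and Hoxd9 named above. Kidney libraries had 46.6% to 48.3% of all their counts in the maternal column, and against that share in place of 0.5 Hoxb2 lost both calls (adjusted p = 0.102 and 0.0711), while Hoxb9 was called in all 3 experiments and Hoxa9 also at 100 pg.

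Hoxb7, the gene with the most counts of its cluster, was close to even in kidney. Its pooled AI was 0.524 with NEBNext, 0.488 at 10 ng and 0.504 at 100 pg, with 95% Wilson intervals, which cover counting error only, of 0.5 to 0.549, 0.471 to 0.505 and 0.488 to 0.521. Hoxd8 lay above 0.5 in each experiment (0.558, 0.543 and 0.573) and in 17 of 18 libraries, and was not called against 0.5 in any. Hoxa10 lay at 0.553, 0.546 and 0.545, also uncalled. Hoxa7 was at 0.445 with NEBNext, 0.563 at 10 ng and 0.548 at 100 pg. These non-calls depend on the null: against the library's own maternal share, Hoxd8 was called in all 3 experiments (log2 odds 0.53, 0.36 and 0.54), Hoxa10 with NEBNext (0.49) and at 10 ng (0.37), Hoxa7 at 10 ng (0.49) and Hoxb7 with NEBNext (0.34, adjusted p = 0.0453). Hoxb4 had an AI of 0.502, 0.478 and 0.574, and Hoxd3 of 0.562, 0.492 and 0.475. For the members with under 200 counts in each experiment, namely Hoxa5, Hoxa6, Hoxa11, Hoxb5, Hoxc10 and Hoxd11, pooled AI lay between 0.389 and 0.673 and none was called.

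**Figure D4:**
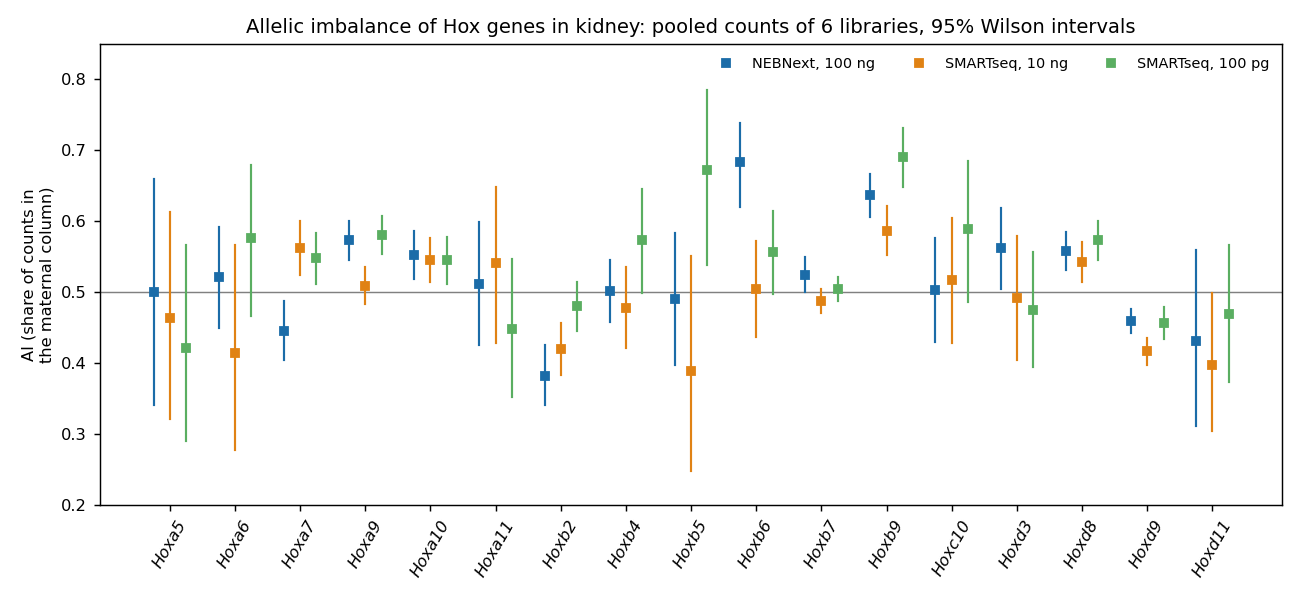
Pooled AI of the 17 Hox genes with at least 30 counts in every kidney experiment, with 95% Wilson intervals for counting error (horizontal line at 0.5). Hoxb9 lies above 0.5 in all experiments (0.637, 0.587 and 0.691) and Hoxd9 below it (0.459, 0.417 and 0.456), while Hoxb7 lies between 0.488 and 0.524.

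The difference in AI between experiments was tested as the interaction of allele and group. With kit and input changed, 0 of 17 members were called against 8.56% of all genes, with 2 at an unadjusted p under 0.05: Hoxb6 (log2 odds -1.09, SE 0.41, adjusted p = 0.113) and Hoxa7 (0.7, SE 0.27, adjusted p = 0.116). Between 100 pg and 10 ng, 0 of 18 were called against 0.43% of all genes, with Hoxa9 at an unadjusted p under 0.05 (0.42, SE 0.19, adjusted p = 0.632). So the call of Hoxb6 with NEBNext and not with SMARTseq was not shown to be a difference between the 2.

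Summed over a cluster, AI stayed near even in kidney. Mean AI over 6 libraries of Hoxa was 0.533 ± 0.0416 (SD) with NEBNext, 0.529 ± 0.0269 at 10 ng and 0.557 ± 0.0502 at 100 pg. Hoxb lay at 0.538 ± 0.0369, 0.492 ± 0.0249 and 0.522 ± 0.0382. For Hoxd the values were 0.489 ± 0.0591, 0.455 ± 0.016 and 0.498 ± 0.0266, and all 6 libraries at 10 ng were below 0.5, from 0.436 to 0.482. Hoxd at 10 ng rests on Hoxd9, without which its AI was 0.525. Hoxc, with the fewest counts, lay at 0.47 ± 0.123, 0.5 ± 0.119 and 0.453 ± 0.23, with a spread between libraries that exceeded the distance from 0.5.

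In the clones AI could be tested for few members. In Abl.1, Hoxb7 had an AI of 0.637 in replicate 1 and 0.591 in replicate 2 (log2 odds 0.67, SE 0.16, adjusted p = 0.0163 by edgeR, where 37.7% of genes were called), and without replicate 1 it did not pass. Hoxb6 was at 0.57 and Hoxb4 at 0.5 there, with libraries on both sides of 0.5. In Abl.2, Hoxb7 was at 0.886 and 0.591 (log2 odds 1.2, SE 0.45, adjusted p = 0.0744, where 39.6% of genes were called), and at 0.649 and 0.756 in the second run. It was called in the second run (log2 odds 1.3, adjusted p = 0.00727) and without replicate 2 (2.91, adjusted p = 0.0111), but not without replicate 1 (0.53, adjusted p = 0.327). The difference in AI of Hoxb7 between the clones did not pass (log2 odds 0.53, SE 0.48, adjusted p = 0.522), against 26.4% of genes called. Without Abl.2 replicate 2 this difference was 2.25 and passed. Summed over the cluster, Hoxb lay at 0.633 and 0.591 in replicates 1 and 2 of Abl.1, close to Hoxb7, and at 0.705 and 0.495 in those of Abl.2, where the pooled value was 0.575 with Hoxb7 and 0.373 without it.

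The nearest neighbours of the Hoxb cluster on chromosome 11 with enough counts differed in AI between the clones, which was not shown for Hoxb7 itself (log2 odds 0.53, not called). Of the genes within 500 kb with at least 100 counts, 9 of 9 in Abl.1 had an AI above 0.5, with a median of 0.64 and 8 called above. In Abl.2 it was 3 of 9 with a median of 0.491, with 3 called above and 1 below. Atp5g1, a subunit of the mitochondrial ATP synthase and the nearest such gene on the side of Hoxb13, lay at 0.549 in Abl.1 and 0.466 in Abl.2 (difference in log2 odds -0.47, adjusted p = 0.000515). Snx11, a sorting nexin on the side of Hoxb1, lay at 0.652 and 0.491 (difference -1.0, adjusted p = 0.0127). Among the 9, Abi3 (0.869 in Abl.1 and 0.978 in Abl.2) and Gngt2 (0.895 and 0.913) went the other way, while the rest were lower in Abl.2. The excess above 0.5 in Abl.1 was not limited to these neighbours. Between 90 and 100 Mb of chromosome 11, which holds the cluster, the median AI of 92 genes in Abl.1 was 0.672 and that of 86 genes in Abl.2 was 0.513, and in kidney medians lay between 0.516 and 0.526. In Abl.1 medians of 0.671 from 100 Mb on and of 0.854 from 0 to 30 Mb were also seen, against 0.512 and 0.506 between 30 and 90 Mb. The AI of Hoxb7 in Abl.1 (0.614 pooled) lies within the range of its 9 neighbours, 0.549 to 0.895, and the part of the region in it was not tested.

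**Figure D5:**
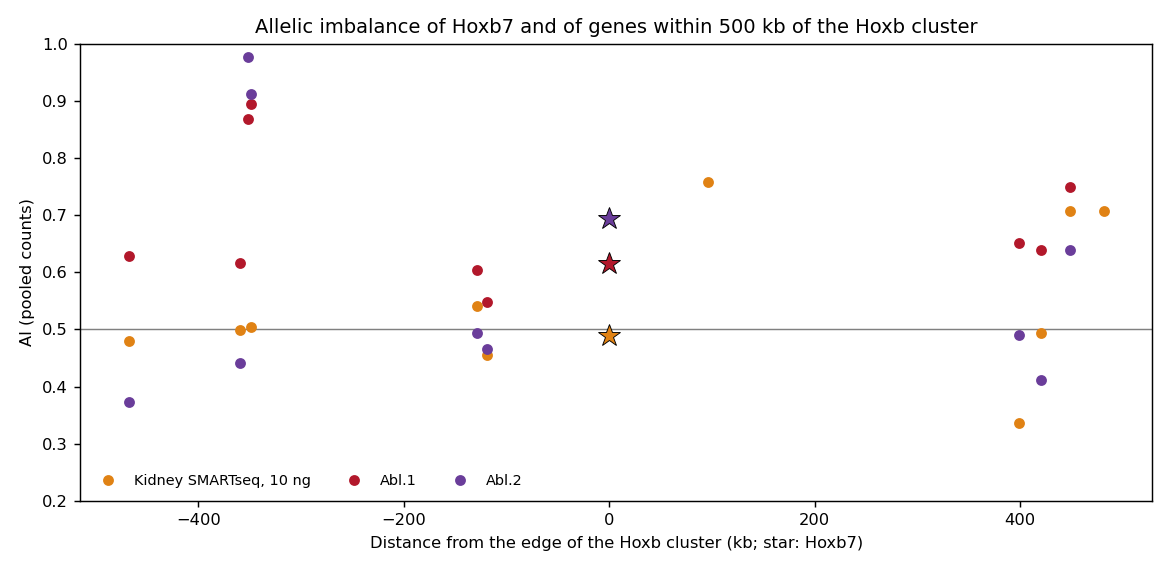
AI (share of counts in the maternal column) of genes around the Hoxb cluster against distance from the cluster's edge (kb), in kidney SMARTseq 10 ng, Abl.1 and Abl.2, with Hoxb7 as a star. In Abl.1 all 9 neighbours lie above 0.5, and in Abl.2 3 of 9 do.

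Transcripts inside the clusters that are no members were counted without regard to strand. The paper states that regions shared by several genes were left out of the gene models. Within the parts that were counted, the strand of a read is not known. Hoxb5os, antisense within Hoxb, had 1173 counts with NEBNext, 3531 at 10 ng and 3477 at 100 pg, a log2 difference of 1.94 between kits (SE 0.07, adjusted p = 2.94e-19), and 10 and 2 counts in Abl.1 and Abl.2. Gm53, between Hoxb13 and Hoxb9, fell by 0.76 on the log2 scale with SMARTseq and was at 0 in both clones. Gm11539, also within Hoxb, went the other way at low counts. It had 31 counts in Abl.1 (median 0.764 CPM, pooled AI 1.0) and 28 in Abl.2 (0.643 CPM). In kidney it had 5, 3 and 10 counts with NEBNext, at 10 ng and at 100 pg (medians 0.154, 0.0782 and 0.227 CPM). Hoxd3os1 in the Hoxd cluster rose by 1.76 with SMARTseq and was at 0 in both clones. Hoxaas3 (log2 1.27, adjusted p = 0.00498) rose as well, while Haglr in the Hoxd cluster did not pass (0.46, adjusted p = 0.158).

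The TALE cofactors, the partners of Hox proteins on DNA, also set the clones apart from kidney and from each other. Meis1, Meis2 and Pknox2 were at 0 in both clones, and Pbx2 was at 0 in every library. Pbx3 had 2 counts in Abl.1 and 214 in Abl.2, Pbx4 0 and 310, Meis3 0 and 113, and Pknox1 308 and 710. All 4 cofactors tested between the clones were higher in Abl.2, where 21.4% of all genes were, with adjusted p-values of 0.00365, 0.00153, 0.00595 and 0.0455 in that order by edgeR. Pbx3, Pbx4 and Meis3 passed the filter on low counts only through Abl.2, which fixes their direction. That leaves Pknox1 alone with a direction not set by the filter. Between kits, 1 of 5 was higher (Meis2, log2 0.71, SE 0.18, adjusted p = 0.00109 by edgeR) and 1 lower (Pknox1, -0.54, SE 0.23, adjusted p = 0.0361). Of all genes, 38.3% were higher and 39.6% lower there. Pbx3 (0.07) and Meis3 (-0.47) were among those that did not pass. Between 100 pg and 10 ng, 0 of 5 passed, where 15.8% of all genes did.

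Kmt2a (MLL1) and its partners deposit and read active chromatin at Hox genes. With SMARTseq 3 of 11 members of this list were higher than with NEBNext and 7 lower, where 38.3% and 39.6% of all genes were. Mllt1 (log2 -2.7), Dot1l (-2.15) and Aff1 (-1.88) led the lower ones, with a list median of -1.15. At 100 pg, 2 of 11, Mllt1 (0.98) and Aff1 (0.62), were higher than at 10 ng, where 8.84% of all genes were. In the mean of both clones 9 of 11 were higher than in kidney, with Dot1l (log2 3.02), Mllt1 (2.63) and Wdr5 (2.52) in front, where 37.3% of all genes were higher. Dot1l, the H3K79 methyltransferase, lay at 32.1 and 42.8 CPM in Abl.1, at 109.7 and 113.8 CPM in Abl.2 and at 2.97 to 6.26 CPM in kidney at 10 ng. Between the clones 3 of 11 were higher in Abl.2, namely Mllt3 (log2 1.77), Kmt2a (1.49) and Dot1l (1.23), 1 was lower (Dpy30, -1.16) and 7 did not pass, where 21.4% of all genes were higher and 24.1% lower.

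Polycomb proteins keep silent Hox genes off. With SMARTseq 2 of 15 members of this list were higher than with NEBNext and 11 lower, among them Pcgf2 (log2 -2.44) and Cbx2 (-1.8), where 38.3% and 39.6% of all genes were. At 100 pg 2 of 15, among them Phc2 (0.68), were higher than at 10 ng, where 8.84% of all genes were. Against kidney, 9 of 15 were higher in the clones and 4 lower, where 37.3% and 49.4% of all genes were. Ezh2, the H3K27 methyltransferase, lay at 2.19 to 4.22 CPM in kidney at 10 ng, at 166.3 and 173.0 CPM in Abl.1 and at 861.3 and 878.9 CPM in Abl.2. Cbx7, a reader of its mark, lay at 36.9 to 47.1 CPM in kidney, at 0.0 and 1.26 CPM in Abl.1 and at 48.7 and 49.7 CPM in Abl.2, so that its lower mean over the clones (log2 -3.57) came from Abl.1. Cbx2 (log2 3.29) was the next largest. Between the clones 8 of 15 were higher in Abl.2, where 21.4% of all genes were, and 0 lower, with Cbx7 (log2 5.9), Ezh2 (2.0) and Bmi1 (1.66) in front. Cbx7 passed the filter on low counts only through Abl.2.

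Most kidney development genes tested were lower in the clones than in kidney. With SMARTseq 0 of 10 tested were higher and 9 lower than with NEBNext, where 38.3% and 39.6% of all genes were. Pax2 (log2 -1.21), Wnt9b (-1.01) and Itga8 (-1.01) led these. At 100 pg 1 of 9 tested, Wt1, was lower than at 10 ng (-0.76), where 6.93% of all genes were. Pax8, Sall1 and Itga8 were at 0 in both clones, at least 2019.0-fold, 750.3-fold and 535.1-fold lower than in kidney at 10 ng. In the mean of both clones, 10 of 11 genes tested were lower than in kidney and 1 was higher, where 49.4% and 37.3% of all genes were. Those at 0 in both clones passed the filter on low counts only through kidney, which fixes their direction. Of 13 other homeobox genes (ParaHox genes and relatives), only Meox1, a mesodermal gene, could be tested in kidney. It was higher with SMARTseq (log2 0.58, adjusted p = 0.00325), and had 34 counts in Abl.1 and 0 in Abl.2 against 9.7 to 16.0 CPM in kidney at 10 ng.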

How the data were processed

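Allelic counts were analysed for kidney (3 experiments of 6 libraries) and the clones Abl.1 and Abl.2 (2 libraries each, Abl.2 sequenced again). The deposited tables hold whole-number counts per gene. The authors aligned reads with STAR (2.5.4a) to pseudogenomes of both parents on GRCm38 and sampled them to equal numbers. They counted SNP alleles with samtools mpileup and summed over merged exons without use of strand and without normalization. Regions shared by several genes were left out of the gene models. The deposited AI tables, fractions that the authors computed from pooled counts, were not used. Samples were grouped by titles. The 38 members and all gene lists were chosen with earlier results of these data known, and lists are those of Hox cofactors, MLL and Polycomb proteins, kidney development and other homeobox genes. Named in the text were all members with at least 30 pooled counts in an experiment or clone, from each list up to 3 called genes with the largest change per comparison (of cofactors, all), and the nearest flanking genes within 500 kb with at least 100 counts. Some items are not reported here. 1884 rows without a symbol stayed in library totals and tests.

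Totals were compared with edgeR (4.0.16, R 4.3.3) by its quasi-likelihood test after filterByExpr and TMM, fitted over all genes with Benjamini-Hochberg adjustment and a threshold of 0.05. Allelic bias and its difference between groups were tested with the same tool on the counts of both columns, library being a term of the model, where a gene had at least 30 pooled counts. Clones shared 1 fit, so that 2 libraries each gave an estimate of spread. Bounds for genes at 0 use 3 counts over the 4 clone libraries, and intervals are 95% Wilson. Total allelic counts of 6138693 to 22410835 per library set the precision. Homeobox sequences were read from GENCODE transcripts of GRCm38. Scripts were tested on simulated data. Alternatives were DESeq2 (1.42.0), other scalings and filters, a null at the library's maternal share, the replicate block, and leaving out each library. Another was a test with the QCC factor and Bonferroni adjustment. Scaling by library totals only, the QCC test without NEBNext replicate 1 and the contrasts of each clone with kidney were added after seeing the data. The check of pairing correlated the deviations of libraries with the same number.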

Additional observations from a re-analysis of the deposited data

Results flagged for a closer look

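In 130 groups of 6 values (61 of CPM, 57 of AI and 12 of cluster AI), 4 had a library far from the other 5 by Dixon's ratio, where chance flags about 1 in 20. Hoxc8 was at 3.15 CPM in NEBNext replicate 2 against 0.652 to 1.49 CPM in the others. In SMARTseq 100 pg replicate 3, Hoxa6 was at 6.53 CPM against 0.454 to 1.97 CPM and Hoxb6 at 13.2 CPM against 4.23 to 6.96 CPM. Hoxc10 was at 3.78 CPM in SMARTseq 100 pg replicate 4 against 1.66 to 2.42 CPM.

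Between Abl.2 and Abl.1 the test of the difference passed for Hoxb7 (log2 -7.35) and Hoxb6 (log2 -3.33) and for 4 cofactors, with adjusted p from edgeR of 0.00153 for Pbx4, 0.00365 for Pbx3, 0.00595 for Meis3 and 0.0455 for Pknox1. For allelic imbalance it passed for 2 neighbours of the Hoxb cluster, Atp5g1 (log2 odds -0.47) and Snx11 (log2 odds -1.0). In the test of totals, Hoxb6 passed the filter on low counts only through Abl.1. Pbx3, Pbx4 and Meis3 passed it only through Abl.2. Their directions were thus set or favoured by the filter.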

How the results depend on the processing

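Of 2001 results on single members, 1950 kept direction and side of the threshold, 27 lost and 23 gained a call, and 1 changed sign: Hoxb9 between kits, at -0.28 on the log2 scale with library totals only. Of 175 counts and cluster values, 153 were kept. Members called for bias numbered 0 with NEBNext (also without replicate 1) and 1 at 10 ng by the test with the QCC factor and Bonferroni adjustment. With the null at the library's maternal share they numbered 6 with NEBNext, 5 at 10 ng and 3 at 100 pg. There 37.6%, 41.8% and 22.6% of all genes were called. With 10 counts required in every library 1 was called at 100 pg (25.6% of all genes), and 1 in the second run of Abl.2 (39.1%). Without a filter on low counts 26 of 27 members tested were called between clones and kidney, against 71.3% of 20812 genes. Of the members gained, all but Hoxb3 and Hoxb5 were at 0 in every clone library, which fixes their direction. Leaving out 1 library gave 2 to 4 bias calls with NEBNext (2 without replicate 5), 2 to 5 at 10 ng (5 without replicate 3), 0 to 1 at 100 pg (1 without replicate 4), 0 to 1 in Abl.1 (0 without replicate 1) and 0 to 1 in Abl.2 (1 without replicate 2). It gave 0 to 1 calls of a difference in AI between the clones (1 without Abl.2 replicate 2) and 2 to 3 of total counts (3 without Abl.1 replicate 2), and 19 members called against kidney (16 with all libraries) in each such fit, where a lone library was assumed to vary like the other groups. Hoxb had an AI of 0.519 in Abl.1, 0.373 in Abl.2 and 0.5 in its second run without the member with most counts, and 0.57 and 0.732 in Abl.1 and the second run as a median over members. Hoxd had 0.525 at 10 ng and 0.553 at 100 pg without Hoxd9, and 0.492 at 10 ng as a median over members. The cause was not tested. The share of higher calls over all genes moved with library totals only from 49.2% to 35.1% between kits, from 43.0% to 54.3% for clones against kidney, from 43.9% to 57.0% for Abl.2 against kidney and from 47.1% to 62.7% between the clones. With the null at the library's share it moved from 51.8% to 74.4% with NEBNext, from 52.5% to 66.1% at 10 ng and from 52.2% to 62.7% at 100 pg.

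Replicate numbers share only a number, with correlations of deviations between -0.0157 and 0.0269 in kidney pairs and 0.16 between the clones, which share 2 numbers. With the replicate block, 10 members were called between kits, 3 between inputs, 16 for clones against kidney and 2 between the clones, and 0 for each difference in AI, as without it. For members with under 100 counts the depth limits AI, as for Hoxa5 with NEBNext, whose 95% Wilson interval ran from 0.341 to 0.659.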
